A study of Mus musculus with 8 samples.

Results

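The genes described here are the nuclear-encoded subunits of the mitochondrial respiratory chain and ATP synthase, measured by RNA-seq in mouse dendritic cells with or without the transcription factor Gata1 and with or without LPS, the lipopolysaccharide of bacterial outer membranes that activates dendritic cells. Members were taken by symbol: every row of the count table named Nduf with a subunit letter and number, Sdha to Sdhd, Uqcr, a Cox symbol in the 4 to 8 series, or Atp5, with pseudogene symbols left out. This gave 84 of 23420 features. By complex they were 35 of complex I, 4 of complex II, 8 of complex III, 19 of complex IV with Ndufa4 counted there, and 15 of complex V. The remaining 3 (Ndufa4l2, Atp5s and Atp5sl) match the pattern but are a paralog or a factor and not a structural subunit. Cox7a2l, a relative of Cox7a2 known as a supercomplex assembly factor, was counted with complex IV. The filter on low counts kept 77 members for testing. The 7 it removed were Ndufs5, Atp5g2, Cox4i2, Cox7b2, Cox8b, Cox8c and Ndufa4l2.

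The 4 groups were Gata1 knock-out cells with LPS (KO with LPS), wild-type cells with LPS (WT with LPS), Gata1 knock-out cells left unstimulated (KO steady state) and wild-type cells left unstimulated (WT steady state), with 2 libraries each. The series design calls these biological replicates without tying them to animals or cultures, so p-values reflect only how far libraries differ, and that difference may be technical. The labels give no promoter or driver for the knock-out, no age or strain of the mice, no tissue from which the cells came, and no LPS dose or duration. The series concerns migration of these cells, and the question put to the respiratory chain here is how its complexes compare across genotype and treatment.

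Complexes I and II pass electrons from NADH and succinate to ubiquinone, complex III passes them on to cytochrome c, and complex IV to oxygen. Complexes I, III and IV pump protons as they do so, and complex V uses the gradient to make ATP. Activated dendritic cells are known to shift towards glycolysis, and succinate oxidation by complex II is a known control point of inflammatory signalling in macrophages. The mitochondrially encoded subunits are not analysed here, since no row of the table carried their symbols.

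Total counts ran from 8005151 to 15495249 per library, and members took between 0.527% and 0.805% of them. Gata1 had 0 reads in each of the 4 KO libraries, against 0 and 1 in WT with LPS and 1 and 10 in WT at steady state. WT library 1 with LPS thus did not differ from the KO libraries in Gata1 reads, and at this depth Gata1 does not check the genotype labels. WT library 2 at steady state, which holds 10 of those reads, stood apart in other markers too. Its neutrophil markers summed to 242 CPM, against at most 38.9 CPM elsewhere, its B cell markers to 20.97 CPM, against at most 6.82 CPM, and the basophil protease Prss34 had 55.9 CPM, against at most 1.35 CPM. Libraries of a group correlated less with LPS (Pearson's r over log2 CPM of 0.954 in KO and 0.910 in WT) than at steady state (0.981 in KO and 0.972 in WT). The 10 listed dendritic cell markers had reads in every library. Their summed level was 4614 and 9794 CPM in KO with LPS, against 15839 and 10056 CPM in WT with LPS. At steady state it was 21361 and 20420 CPM in KO and 28957 and 16415 CPM in WT. Most of this sum came from Cd74, H2-Aa and H2-Ab1. Zbtb46, another listed marker, was at 12.0 and 4.90 CPM in KO with LPS, against 68.2 and 55.3 CPM in KO at steady state. Flt3, a receptor of the dendritic cell lineage, was at 0.452 and 0.306 CPM in KO with LPS, at 0.926 and 18.7 CPM in WT with LPS, at 33.4 and 35.2 CPM in KO at steady state, and at 19.9 and 55.9 CPM in WT at steady state.

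Summed over all members, the level was 6842 and 9642 CPM in KO with LPS, against 9034 and 5343 CPM in WT with LPS, 5567 and 4957 CPM in KO at steady state, and 6283 and 4911 CPM in WT at steady state. CPM here is counts per 1000000, with library sizes corrected by TMM factors. Both KO libraries with LPS stood above both KO steady-state libraries. Of the WT libraries with LPS, library 1 stood above both steady-state libraries and library 2 lay between them. The group means were 8242 ± 1980 CPM in KO with LPS, 7188 ± 2610 CPM in WT with LPS, 5262 ± 431 CPM in KO at steady state and 5597 ± 970 CPM in WT at steady state (SD, n = 2 each). In bulk libraries such as these, fewer cells of a type and less RNA per cell cannot be told apart.

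In each single complex, both KO libraries with LPS likewise stood above both at steady state, WT library 1 with LPS stood above both WT steady-state libraries, and WT library 2 with LPS lay between them. Complex I summed to 1837 and 2599 CPM in KO with LPS, against 2325 and 1339 CPM in WT with LPS, 1361 and 1228 CPM in KO at steady state, and 1642 and 1214 CPM in WT at steady state. Complex II summed to 720 and 911 CPM in KO with LPS, against 830 and 500.2 CPM in WT with LPS, 574 and 481 CPM in KO at steady state, and 541 and 471 CPM in WT at steady state. Complexes III and IV, which carry electrons to oxygen, and complex V, which makes the ATP, showed the same arrangement within each genotype. KO library 2 with LPS was the highest library for every complex but III, where WT library 1 with LPS was highest. The ratio of group means, LPS over steady state, in KO was 1.71 for complex I, 1.55 for II, 1.68 for III, 1.72 for IV and 1.37 for V. In WT the same ratio was 1.28 for complex I, 1.31 for II, 1.49 for III, 1.25 for IV and 1.24 for V.

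**Figure D1:**
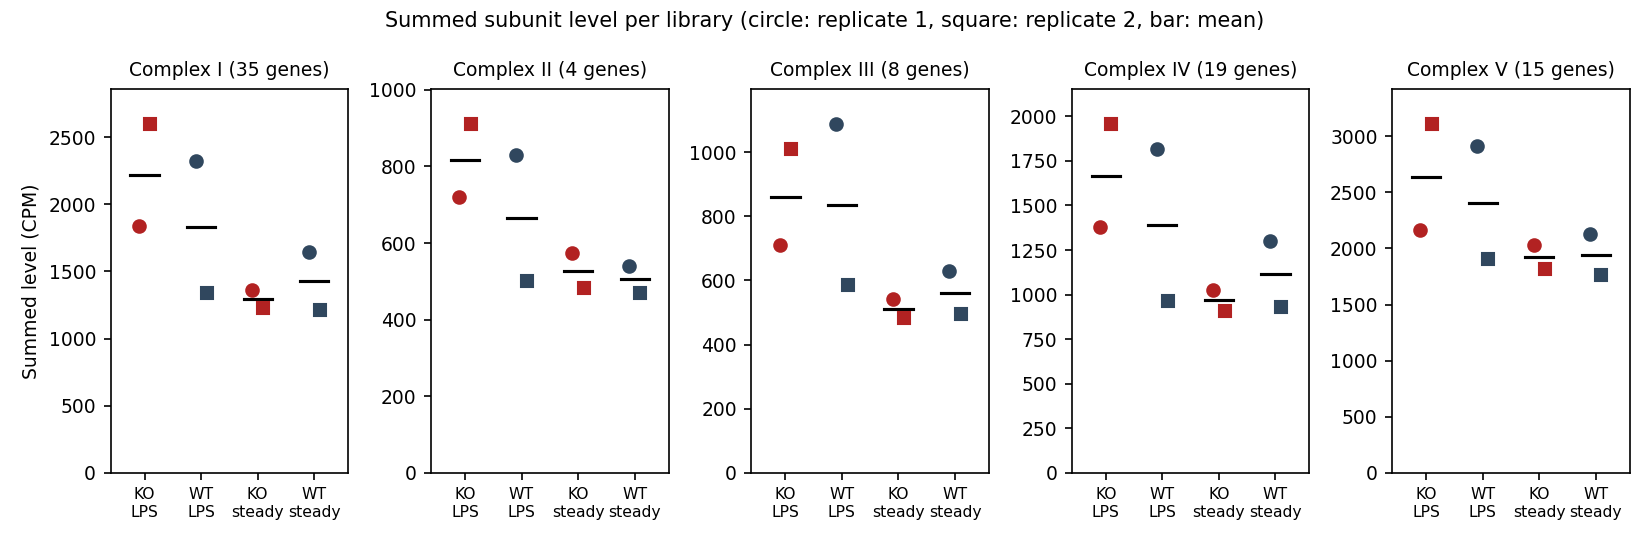
Summed level of the subunits of each complex (y axis, CPM, each panel with its own scale from 0) in the 8 libraries, with KO in red, WT in dark blue, and the bar at the mean of the 2 libraries of a group. Both KO libraries with LPS lie above both KO steady-state libraries in each panel, and the WT libraries with LPS are split, with complex I at 2325 CPM in library 1 and 1339 CPM in library 2.

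Per kilobase of transcript, which allows genes to be compared with each other, the mean level over the 8 libraries was highest for Cox8a at 432 CPM per kb, followed by Cox4i1 at 389, Atp5e at 383 and Atp5b at 353 CPM per kb. Cox8a and Cox4i1 are the ubiquitous isoforms of complex IV subunits 8 and 4, and Atp5e and Atp5b encode the epsilon and the catalytic beta subunit of the ATP synthase. The median over the tested subunits of a complex was 40.7 CPM per kb for complex I, 83.8 for II, 69.5 for III, 69.6 for IV and 82.4 for V. In complex I, Ndufa2 at 193 CPM per kb was the highest. Atp5a1, the alpha subunit that forms the catalytic head with Atp5b, was at 249 CPM per kb.

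Some of the order of levels moved with a property of the sequences. Of 74 subunits with a length and a place in 1 of the 5 complexes after tissue-restricted and non-structural symbols were set aside, 11 shared at least 30% of their transcript with a processed pseudogene of at least 98% identity. These 11 had a median of 19.6 CPM per kb, against 72.0 CPM per kb for the other 63. The sources used here do not say how reads matching more than 1 place were counted, and the part of such reads in these levels was not tested. Ndufs5, an accessory subunit of complex I, had 0 reads in all 8 libraries. Its near-copy BC002163, 99.373% identical over 319 bases, is a row of its own and had 22.4 and 30.007 CPM in KO with LPS, against 18.2 and 12.9 CPM in WT with LPS, 11.5 and 10.9 CPM in KO at steady state, and 10.7 and 9.29 CPM in WT at steady state. Values of Ndufs5, Ndufb4, Ndufa12, Ndufs3, Uqcrb, Uqcr11, Cox7c, Atp5l, Atp5h, Atp5f1 and Atp5g2 are uncertain for this reason. Those of Atp5g1 are uncertain too. It shares 411 bases at 99.757% identity with a processed pseudogene, but these are 8.72% of the 4715-base transcript used, below the 30% cut.

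**Figure D2:**
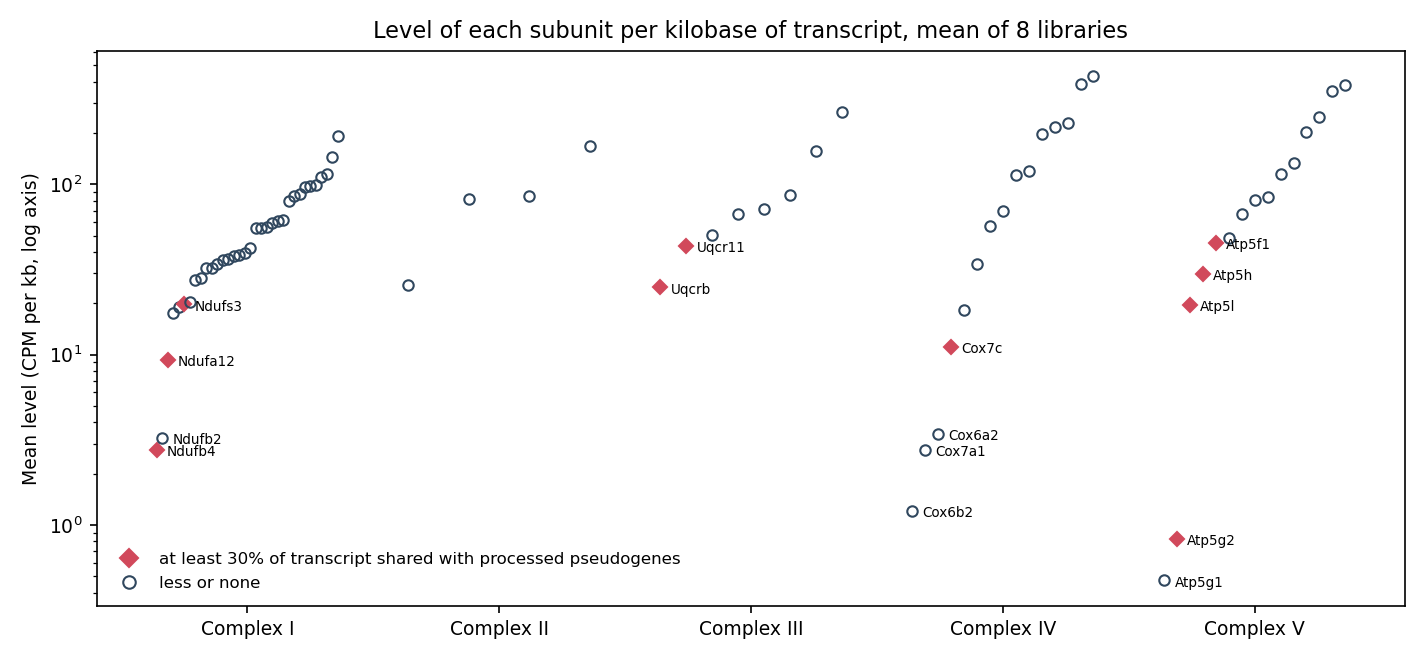
Mean level over the 8 libraries (y axis, CPM per kb of transcript, log axis) of the subunits of each complex, ordered by level within a complex; subunits at or near 0 are not drawn. Red diamonds are subunits that share at least 30% of their transcript with processed pseudogenes, with a median of 19.6 CPM per kb, against 72.0 CPM per kb for the others.

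In KO cells, 75 of the 77 tested members had a positive log2 fold change, LPS over steady state, and 4 passed the test. Members were tested with edgeR's quasi-likelihood method in a fit to 12442 genes, with p-values adjusted over those genes by Benjamini-Hochberg and a call made under 0.05. All 4 rose: the complex I accessory subunits Ndufb3, Ndufc1 and Ndufc2, which belong to its membrane arm, and Cox7a2, the ubiquitous isoform of complex IV subunit 7a. That is 4 of 77, against 5.3% of all genes called higher and 11.8% called in either direction, so the share called is close to the background. At an unadjusted p under 0.05, 36 members were higher and 0 lower, against 15.7% of all genes higher and 32.8% in either direction. DESeq2 called 16 members, all higher, against 1315 of the 12442 genes called higher and 22.9% of all genes in either direction. Both libraries with LPS lay above both at steady state for 65 members and below both for 1, against 34.4% and 38.2% of all genes.

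The median log2 fold change of the tested members was 0.80, against -0.02 over all genes tested. By complex the median was 0.84 for complex I, 0.73 for II, 0.67 for III, 0.87 for IV and 0.53 for V. All 34 tested members of complex I, all 4 of complex II, all 8 of complex III and all 14 of complex V had positive values, as did 13 of 15 in complex IV. Library 2 of KO with LPS carried more of this than library 1: its members had a median log2 deviation of 0.97 from the steady-state mean, against 0.44 in library 1. Without library 2 the median over members was 0.46, and without library 1 it was 0.97. With libraries scaled by total counts the median over members was 0.53 and that over all genes -0.27, so members and all genes both moved down.

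Ndufb3 (chromosome 1, 58586384 to 58595964 in GRCm38, plus strand) had 33.9 and 33.4 CPM in KO with LPS, against 14.3 and 13.5 CPM in KO at steady state. Its log2 fold change was 1.27 (SE 0.255, edgeR adjusted p = 0.0246). The 2 libraries of each group lay close together and the groups did not overlap. Ndufc1 (chromosome 3, 51404677 to 51408988, minus strand) had 30.7 and 47.6 CPM in KO with LPS, against 14.2 and 13.1 CPM in KO at steady state, a log2 fold change of 1.52 (SE 0.374, edgeR adjusted p = 0.0428). Ndufc2 (chromosome 7, 97400003 to 97407802, plus strand) had 57.2 and 54.2 CPM in KO with LPS, against 28.2 and 24.0 CPM in KO at steady state, a log2 fold change of 1.09 (SE 0.252, edgeR adjusted p = 0.0359). Cox7a2 (chromosome 9, 79755361 to 79759878, minus strand) had 109 and 165 CPM in KO with LPS, against 45.4 and 45.4 CPM in KO at steady state, a log2 fold change of 1.59 (SE 0.375, edgeR adjusted p = 0.0388). For Ndufc1 and Cox7a2 library 2 with LPS was the higher, and for Ndufb3 and Ndufc2 the libraries with LPS were nearly equal. None of the 4 shares sequence of 98% identity with a processed pseudogene. The 4 calls were lost in a fit without either KO library of either treatment or without either WT steady-state library. Fewer genes were called overall in those fits. Without either WT library with LPS, more members and more genes overall were called. Each such fit leaves 1 library in a group. With total counts Ndufb3 and Cox7a2 kept their calls, and Ndufc1 (adjusted p = 0.0511) and Ndufc2 (adjusted p = 0.0757) lost them. With single libraries left out the log2 fold change ran from 1.25 to 1.31 for Ndufb3, 1.15 to 1.7999 for Ndufc1, 1.01 to 1.21 for Ndufc2 and 1.24 to 1.86 for Cox7a2.

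The promoter windows of these 4 genes and of Cox6a1 are shown because the nuclear genes of the respiratory chain are known to share binding motifs of a few transcription factors, and the 4 are the members that passed the test. Each runs from 250 bases before to 50 bases after the RefSeq start in GRCm38.p6, on the gene's strand. Capitals mark matches to the motifs searched for, which were the NRF1 motif GCGCATGCG, the ETS motif CCGGAAG bound by GABPA, and the YY1 motif AAGATGGC, on both strands.
Ndufb3 (chr1:58586147-58586446, plus strand): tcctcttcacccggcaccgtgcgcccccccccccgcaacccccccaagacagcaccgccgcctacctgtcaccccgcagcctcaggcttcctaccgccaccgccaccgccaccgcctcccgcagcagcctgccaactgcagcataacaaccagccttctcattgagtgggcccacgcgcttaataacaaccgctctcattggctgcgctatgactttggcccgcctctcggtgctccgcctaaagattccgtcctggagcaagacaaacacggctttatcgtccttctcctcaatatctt
Ndufc1 (chr3:51408906-51409205, minus strand): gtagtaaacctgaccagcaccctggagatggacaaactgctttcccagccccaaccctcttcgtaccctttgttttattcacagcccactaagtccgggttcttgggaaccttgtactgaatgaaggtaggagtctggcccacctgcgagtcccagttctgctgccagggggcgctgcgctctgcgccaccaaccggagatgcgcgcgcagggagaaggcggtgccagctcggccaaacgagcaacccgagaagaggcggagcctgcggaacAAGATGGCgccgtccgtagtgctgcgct
Ndufc2 (chr7:97399753-97400052, plus strand): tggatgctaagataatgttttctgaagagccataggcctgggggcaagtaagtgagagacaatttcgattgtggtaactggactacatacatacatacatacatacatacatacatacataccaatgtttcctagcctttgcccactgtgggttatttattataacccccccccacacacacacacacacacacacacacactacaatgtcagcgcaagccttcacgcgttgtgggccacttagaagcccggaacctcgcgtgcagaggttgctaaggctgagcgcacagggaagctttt
Cox7a2 (chr9:79759804-79760103, minus strand): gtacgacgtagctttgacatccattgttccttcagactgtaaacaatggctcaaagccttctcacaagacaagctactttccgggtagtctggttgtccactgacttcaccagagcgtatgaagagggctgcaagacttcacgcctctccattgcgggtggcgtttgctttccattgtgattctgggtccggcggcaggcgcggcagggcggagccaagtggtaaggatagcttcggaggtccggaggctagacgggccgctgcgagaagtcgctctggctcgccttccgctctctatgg
Cox6a1 (chr5:115348909-115349208, minus strand): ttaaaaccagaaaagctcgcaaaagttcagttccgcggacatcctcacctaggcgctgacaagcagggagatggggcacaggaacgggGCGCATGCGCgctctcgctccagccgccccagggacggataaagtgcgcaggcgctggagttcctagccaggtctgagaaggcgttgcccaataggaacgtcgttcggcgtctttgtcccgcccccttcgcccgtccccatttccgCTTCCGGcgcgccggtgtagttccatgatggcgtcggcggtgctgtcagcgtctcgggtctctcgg

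Of the 4 called genes, Ndufc1 held a match, to the YY1 motif, starting 22 bases after the start. Ndufb3, Ndufc2 and Cox7a2 held none of these letters in the window. Cox6a1, the ubiquitous isoform of complex IV subunit 6a, held the NRF1 motif on both strands of the same palindromic stretch and the ETS motif on the opposite strand. It was not called, and is shown as a member that holds both motifs. Atp5k, Atp5l and Uqcr11, not shown, held both as well. Of the 69 members with a promoter window, 11.6% held the NRF1 motif, against 1.95% of all genes with a window. The ETS motif stood in 23.2% of members and 9.93% of all genes, and the YY1 motif in 15.9% of members and 3.19% of all genes. In KO with LPS against steady state, the median log2 fold change was 0.82 for the 7 tested members with the NRF1 motif and 0.76 for the 58 without it. For the ETS motif it was 0.84 with (16 members) and 0.72 without (49), and for the YY1 motif 0.67 with (11) and 0.81 without (54).

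Within complex I the log2 fold change in KO ranged up to 1.52 for Ndufc1 and down to 0.06 for Ndufs1, the core subunit that carries several of the iron-sulfur clusters. Ndufs1 had 57.6 and 58.2 CPM in KO with LPS, against 56.1 and 54.5 CPM in KO at steady state (edgeR adjusted p = 0.848). The middle of the complex, from its lower to its upper quartile, lay between 0.54 and 1.09. Ndufa2, the member of complex I with the highest level per kilobase, had 107 and 211 CPM in KO with LPS, against 68.2 and 63.3 CPM in KO at steady state, with an edgeR adjusted p of 0.119.

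Complex II, succinate dehydrogenase, has 4 subunits, and their values in KO differed from each other. Sdhd, a membrane anchor, had 238 and 331 CPM in KO with LPS, against 137 and 115 CPM in KO at steady state, a log2 fold change of 1.18 (edgeR adjusted p = 0.0864). Sdhb, the iron-sulfur subunit, had 132 and 154 CPM in KO with LPS, against 82.4 and 77.7 CPM in KO at steady state (log2 fold change 0.84, edgeR adjusted p = 0.0616). For Sdhb and Sdhd the groups did not overlap, and neither passed the test in edgeR, while DESeq2 called them at adjusted p of 0.0151 for Sdhb and 0.0268 for Sdhd. Sdhc, the other anchor, had a log2 fold change of 0.62. Sdha, the flavoprotein that oxidises succinate, had 243 and 306 CPM in KO with LPS, against 275 and 221 CPM in KO at steady state, overlapping ranges and a log2 fold change of 0.14.

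In complex III the highest log2 fold changes in KO were those of the small subunits Uqcrq at 1.34 and Uqcr10 at 1.34, and the lowest was that of the core protein Uqcrc1 at 0.46. Uqcrq had 85.7 and 135 CPM in KO with LPS, against 50.3 and 36.8 CPM in KO at steady state (edgeR adjusted p = 0.0848). Uqcrh, the hinge protein that contacts cytochrome c1, had 124 and 191 CPM in KO with LPS, against 104 and 90.4 CPM in KO at steady state.

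In complex IV, which has the most tissue-restricted isoforms, the SD of the fold changes over tested members was 1.12, against 0.365 in complex I, 0.433 in II, 0.365 in III and 0.304 in V. That SD was carried by Cox6a2 (3.36) and Cox6b2 (-2.15), which had few reads, and the quartiles of complex IV lay at 0.65 and 1.14. Of the abundant isoforms, Cox8a had 298 and 386 CPM in KO with LPS, against 179 and 148 CPM in KO at steady state, a log2 fold change of 1.07 (edgeR adjusted p = 0.103). Cox4i1 had 260 and 383 CPM in KO with LPS, against 273 and 244 CPM in KO at steady state, so that its groups overlapped (log2 fold change 0.31). Cox6a1 had a log2 fold change of 0.85, Cox6b1 of 0.87 and Ndufa4 of 1.03. The value of Cox5b was -0.09, with 16.3 and 13.6 CPM in KO with LPS, against 17.3 and 14.5 CPM in KO at steady state.

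In complex V the log2 fold change was highest for Atp5k, the membrane subunit e, at 1.21 (edgeR adjusted p = 0.0742) and lowest for Atp5a1 at 0.20. Atp5k had 35.1 and 54.2 CPM in KO with LPS, against 22.3 and 16.1 CPM in KO at steady state. Atp5a1 had 591 and 750 CPM in KO with LPS, against 618 and 552 CPM in KO at steady state. Atp5b, the other subunit of the catalytic head, had 595 and 965 CPM in KO with LPS, against 638 and 581 CPM in KO at steady state (log2 fold change 0.36). In library 1 with LPS both head subunits lay inside their steady-state range, and in library 2 both lay above it.

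**Figure D3:**
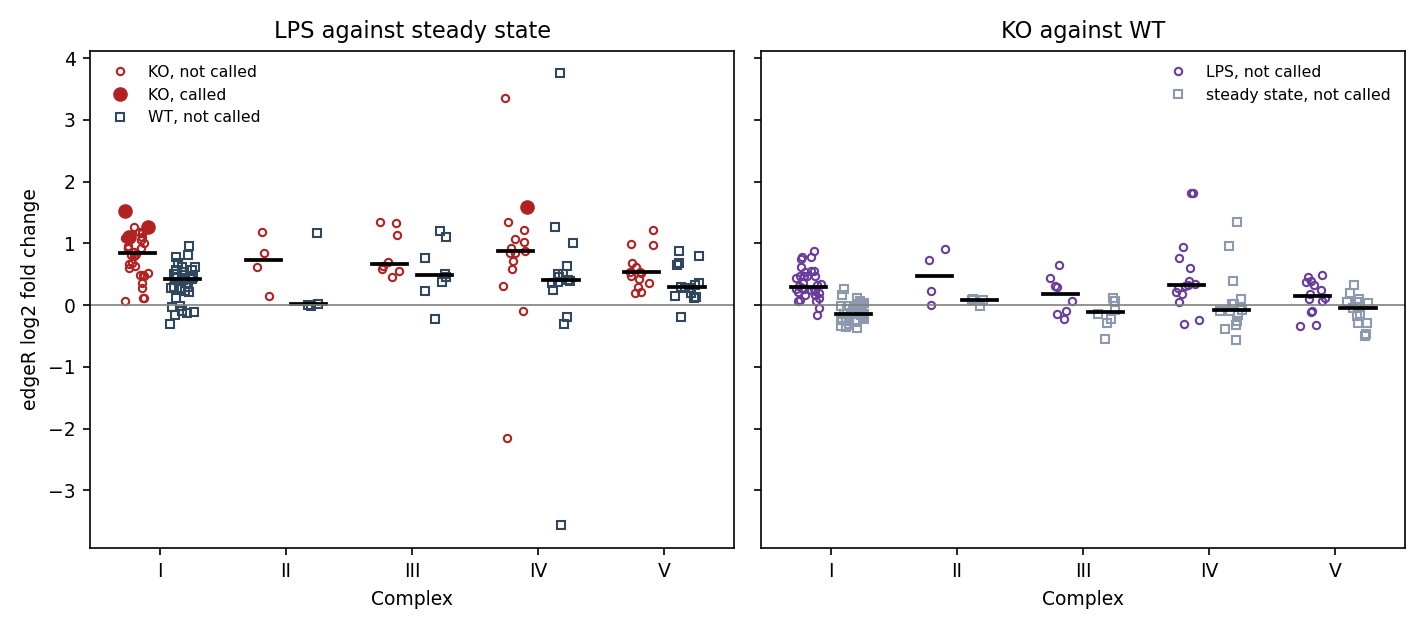
Log2 fold changes from edgeR (y axis) of every tested subunit by complex (x axis), with LPS against steady state in the left panel (KO red circles, WT dark blue squares) and KO against WT in the right panel (LPS circles, steady state squares). Filled symbols passed the test at an adjusted p under 0.05, bars are medians, and in the left panel the KO medians (0.53 to 0.87) lie above the WT medians (0.01 to 0.48) in every complex.

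In WT cells, 63 of the 77 tested members had a positive log2 fold change, LPS over steady state, and 0 passed edgeR's quasi-likelihood test after adjustment, against 6.49% of all genes. At an unadjusted p under 0.05, 8 were higher and 1 lower, against 13.2% of all genes higher and 26.7% in either direction. DESeq2 called 2, Sdhd and Cox6a2, both higher, against 940 of 12442 genes called higher and 16.0% of all genes in either direction. Both libraries with LPS lay above both at steady state for 18 members and below both for 2, against 27.5% and 29.1% of all genes, so the share of members higher was close to the background. The median was 0.38, against 0.00 over all genes tested, and by complex it was 0.41 for I, 0.01 for II, 0.48 for III, 0.40 for IV and 0.29 for V.

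The libraries of this group went different ways. In WT library 1 with LPS, 66 of the 77 members lay above both WT steady-state libraries, and in library 2, 18 did, 37 lay between them and 22 lay below both. Of all genes tested, 43.0% lay above both in library 1 and 39.9% in library 2. Library 1 was above library 2 for 73 members, with a median log2 difference of -0.80, library 2 minus library 1. Without library 1 the median response of the members in WT was -0.07, and without library 2 it was 0.74. It was 0.22 without WT steady-state library 2 and 0.60 without WT steady-state library 1. In KO with LPS, 65 members lay above both KO steady-state libraries in library 1 and 75 in library 2, against 44.1% and 44.0% of all genes. Library 2 was above library 1 for 71 members (median log2 difference 0.50).

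Within complex II, Sdhd had 385 and 184 CPM in WT with LPS, against 136 and 118 CPM in WT at steady state, a log2 fold change of 1.16 (edgeR adjusted p = 0.113, DESeq2 adjusted p = 0.0410). The other 3 subunits had values of 0.01 for Sdha, 0.01 for Sdhb and -0.01 for Sdhc. Both libraries with LPS stood above both at steady state for Sdhd, although library 2 stood less far. Sdhb had 80.8 and 71.8 CPM in WT with LPS, against 86.9 and 64.8 CPM in WT at steady state, so its groups overlapped. In complex III, Uqcrq had 147 and 64.8 CPM in WT with LPS, against 52.0 and 39.8 CPM in WT at steady state (log2 fold change 1.20, edgeR adjusted p = 0.134), and Uqcr11, a small subunit of that complex, had the lowest value at -0.23.

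In complexes I and V the WT values stayed between -0.30 for Ndufb2 and 0.96 for Ndufs3, and between -0.19 for Atp5j and 0.88 for Atp5g1. Of the 4 members that rose in KO, Ndufb3 had 22.0 and 17.3 CPM in WT with LPS, against 17.8 and 14.8 CPM in WT at steady state (log2 fold change 0.27). Cox7a2 had 119 and 61.3 CPM in WT with LPS, against 51.8 and 38.3 CPM in WT at steady state (log2 fold change 0.997, edgeR adjusted p = 0.144). The values of Ndufc1 and Ndufc2 in WT were 0.61 and 0.44. The groups of Cox7a2 and Ndufc2 did not overlap and those of Ndufb3 and Ndufc1 did.

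**Figure D4:**
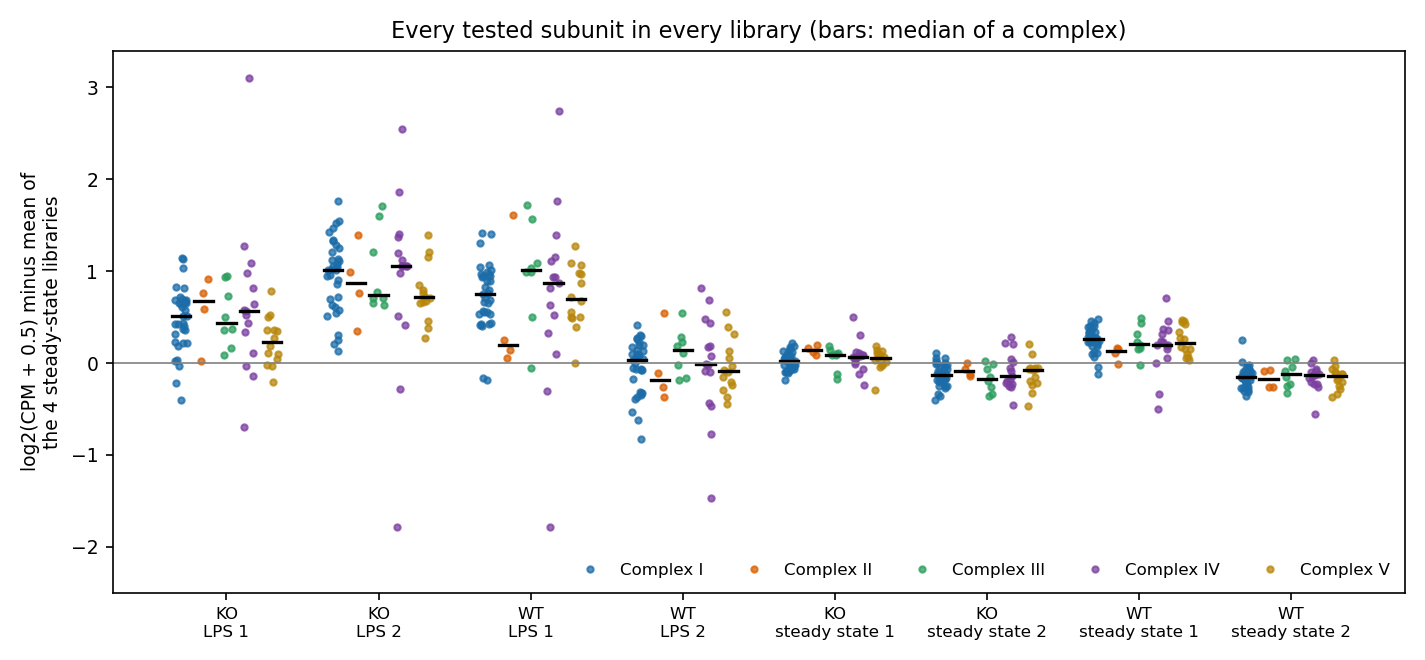
Each tested subunit (1 point) in each of the 8 libraries, as log2(CPM + 0.5) minus its mean over the 4 steady-state libraries (y axis), with complexes I to V from left to right within a library and bars at the median of a complex. KO library 2 and WT library 1 with LPS lie highest, with medians over members of 0.97 and 0.82, KO library 1 with LPS follows at 0.44, and WT library 2 with LPS lies at -0.01 among the steady-state libraries.

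With LPS, 65 of the 77 members had a positive log2 fold change, KO over WT, and 0 passed edgeR's test after adjustment, against 0.772% of all genes. At an unadjusted p under 0.05, 5 members were higher and 0 lower, against 931 of 12442 genes higher and 16.9% in either direction. DESeq2 called 1 (Sdhb, higher), against 432 of those genes called higher and 8.54% in either direction. The groups did not overlap for 15 members, all higher in KO, against 18.0% of all genes higher and 18.1% lower, again a share close to the background. The median was 0.28, against -0.01 over all genes tested, and by complex 0.29 for I, 0.48 for II, 0.18 for III, 0.32 for IV and 0.15 for V. This median rested on single libraries. It was -0.07 without WT library 2 with LPS, 0.01 without KO library 2, 0.51 without KO library 1 and 0.71 without WT library 1.

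Sdhb had 132 and 154 CPM in KO with LPS, against 80.8 and 71.8 CPM in WT with LPS, a log2 fold change of 0.91 (SE 0.238, edgeR adjusted p = 0.119, DESeq2 adjusted p = 0.0188). Sdhc had 107 and 120 CPM in KO with LPS, against 78.2 and 58.9 CPM in WT with LPS (log2 fold change 0.73, edgeR adjusted p = 0.213). Sdhb and Sdhc stood higher in both KO libraries, while Sdhd had 238 and 331 CPM in KO against 385 and 184 CPM in WT, with overlapping groups and a log2 fold change of 0.00. Ndufb3 had 33.9 and 33.4 CPM in KO with LPS, against 22.0 and 17.3 CPM in WT with LPS (log2 fold change 0.78, edgeR adjusted p = 0.180). The highest value in complex I was 0.88 for Ndufc1. In complex III the highest and lowest were 0.66 for Uqcr11 and -0.22 for Uqcrh, in complex IV 1.81 for Cox7a1 and -0.30 for Cox7c, and in complex V 0.49 for Atp5g3 and -0.34 for Atp5g1.

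At steady state, 25 of the 77 members had a positive log2 fold change, KO over WT, and 0 passed edgeR's test, as in 0.0% of all genes. At an unadjusted p under 0.05 the count of members was 0 as well, against 2.63% of all genes, and DESeq2 called 0 members, against 0.217% of all genes. The groups did not overlap for 6 members higher and 12 lower, against 22.1% and 23.4% of all genes. The median was -0.10, against -0.005 over all genes tested, and by complex -0.14 for I, 0.08 for II, -0.11 for III, -0.07 for IV and -0.04 for V. Without WT steady-state library 1 the median was 0.09, and without library 2 it was -0.28. The lowest values were those of Cox7a2l at -0.57 and of Uqcrh at -0.55. Cox7a2l had 86.0 and 84.5 CPM in KO, against 165 and 87.8 CPM in WT at steady state, so that WT library 1 stood apart from the other 3 libraries. Uqcrh had 104 and 90.4 CPM in KO, against 163 and 120 CPM in WT.

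The difference between the LPS responses, KO minus WT, was tested as an interaction. It was positive for 72 of the 77 members, with a median of 0.41 on the log2 scale, against -0.01 over all genes. No member passed: edgeR called 0 members and 0.0% of all genes, with 2 members (Ndufb3 and Sdhb) at an unadjusted p under 0.05, against 6.41% of all genes. DESeq2 called 0 members, against 0.908% of all genes. Ndufb3 had an interaction of 1.001 (SE 0.357, edgeR adjusted p = 0.681) and Sdhb of 0.83 (SE 0.335, edgeR adjusted p = 0.756). The median was 0.05 without WT library 2 with LPS and 0.87 without WT library 1 with LPS, 0.10 without KO library 2 with LPS, 0.18 without WT steady-state library 1 and 0.61 without WT steady-state library 2. No difference between the genotypes in the response of a member to LPS passed the test.

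The tissue-restricted and stress-linked isoforms were described whatever their values. Cox6a2, the isoform of subunit 6a known from heart and skeletal muscle, had 6.78 and 4.44 CPM in KO with LPS, against 5.16 and 0.866 CPM in WT with LPS, 0.543 and 0.531 CPM in KO at steady state, and 0.0966 and 0.297 CPM in WT at steady state. These rest on 60 and 29 reads in KO with LPS, 39 and 14 in WT with LPS, 7 and 6 in KO at steady state, and 1 and 4 in WT at steady state. The log2 fold change, LPS over steady state, was 3.36 in KO (edgeR adjusted p = 0.0557, DESeq2 adjusted p = 0.00605) and 3.75 in WT (edgeR adjusted p = 0.0717, DESeq2 adjusted p = 0.00756). All 4 libraries with LPS lay above all 4 at steady state, and the edgeR threshold was missed in both genotypes. Per kilobase, Cox6a2 averaged 3.44 CPM per kb over the 8 libraries and its partner Cox6a1 230 CPM per kb. About 10.3% of the Cox6a2 transcript lies in the overlapping gene Itgad, which had 3.28 and 3.52 CPM in KO with LPS, against 5.55 and 0.433 CPM in WT with LPS, 13.3 and 16.3 CPM in KO at steady state, and 3.09 and 1.71 CPM in WT at steady state. Without strand, reads in the shared stretch cannot be told apart, and their part in the values of Cox6a2 was not tested. The same limit holds for other members. In all, 21 shared sequence with an overlapping gene, among them Cox5a (42.0% of the transcript), Ndufb6 (39.0%) and Cox4i1 (20.1%).

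Cox6b2, known from testis, had the opposite sign. It had 5 and 0 reads in KO with LPS, against 0 and 2 in WT with LPS, 17 and 17 in KO at steady state, and 9 and 17 in WT at steady state. The fitted log2 fold changes, LPS over steady state, of -2.15 in KO (edgeR adjusted p = 0.197) and -3.57 in WT (edgeR adjusted p = 0.119) rest on those few reads. Both groups with LPS lay below both groups at steady state, and its ubiquitous partner Cox6b1 had 132 and 219 CPM in KO with LPS, against 104 and 88.3 CPM in KO at steady state.

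Cox7a1, the heart and muscle isoform of subunit 7a, had 16 and 17 reads in KO with LPS, against 9 and 3 in WT with LPS, 15 and 8 in KO at steady state, and 7 and 4 in WT at steady state. Its log2 fold change, KO over WT with LPS, was 1.81 (edgeR adjusted p = 0.373). Cox4i2, the isoform known from lung and low oxygen, had 1 read in WT library 2 with LPS and 1 in WT library 1 at steady state and 0 elsewhere. Cox8b, Cox8c and Cox7b2 had 0 reads in all 8 libraries, which allows up to 3 reads in each. Ndufa4l2, a paralog of Ndufa4 known as a target of hypoxia signalling, had 0 reads in all 4 libraries with LPS, against 0 and 1 in KO at steady state and 2 and 1 in WT at steady state. The 3 genes for subunit c of the ATP synthase encode the same mature protein. Of these, Atp5g3 averaged 203 CPM per kb, Atp5g2 0.827 CPM per kb and Atp5g1 0.472 CPM per kb over the 8 libraries, and Atp5g1 and Atp5g2 share sequence with processed pseudogenes. Atp5s and Atp5sl, which are not structural subunits, had log2 fold changes of 0.25 and 0.34 in KO and -0.58 and 0.49 in WT, LPS over steady state.

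Transcript length moved with the LPS responses, less so in WT than in KO, and with the differences between libraries of a group. The tested members are short, with a median transcript of 863 bases, against 2960 bases for all tested genes. In KO with LPS against steady state, the 33 members under 750 bases had a median log2 fold change of 0.93, against 0.44 for the 293 other genes of that length. From 750 to under 1500 bases it was 0.72 for 25 members, against 0.39 for 1509 other genes. From 1500 to under 3000 bases it was 0.48 for 15 members, against 0.07 for 4077 other genes, and from 3000 bases it was 0.46 for 3 members, against -0.21 for 5744 other genes. In each of the 4 classes the members stood above the other genes.

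The differences between replicates ordered genes by length too. In WT with LPS, library 2 minus library 1, other genes under 750 bases had a median of -0.50 and those of 3000 bases or more 0.22. In KO with LPS, library 2 minus library 1, the same classes had 0.43 and -0.22. Members under 750 bases had -0.88 in WT and 0.53 in KO. Spearman's rho between length and the LPS response in KO was -0.40 over the 76 tested members with a length and -0.23 over 11699 genes with a length, as a description across genes that share the same 8 libraries. For the LPS response in WT, rho was -0.14 over members and -0.11 over genes. For KO against WT at steady state it was 0.30 and 0.23. There, members under 750 bases had a median log2 fold change of -0.15, against -0.23 for other genes of that length. The part of length in the values of the members was not tested.

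**Figure D5:**
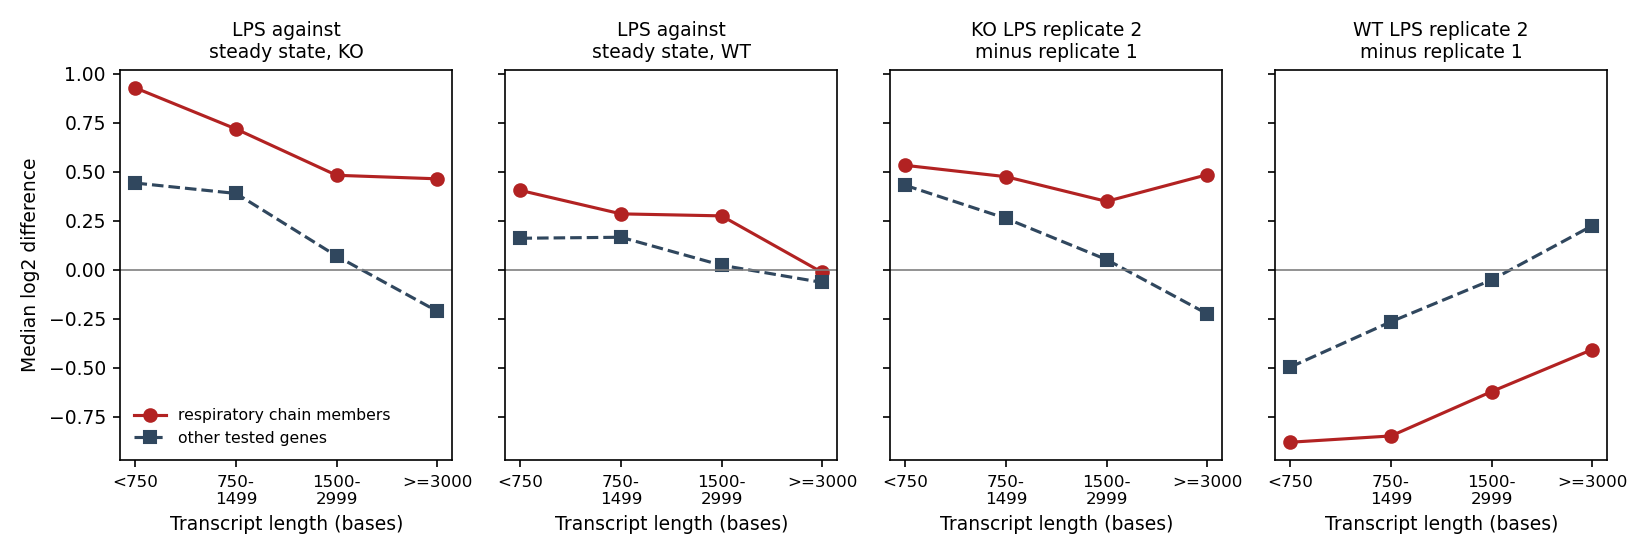
Median log2 difference (y axis) by class of transcript length (x axis, bases) for the respiratory chain members (red circles) and all other tested genes (dark blue squares), for the LPS responses in KO and WT and for replicate 2 minus replicate 1 in KO and WT with LPS. Among other genes, the short are high and the long low in 3 panels and the other way round in WT with LPS, replicate 2 minus replicate 1, where those under 750 bases have a median of -0.50.

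Other genes of mitochondrial respiration were read from lists of known function. Of 38 tested assembly factors, 33 had a positive log2 fold change in KO with LPS against steady state, 3 rose and 0 fell, and in WT 32 were positive, 2 rose and 0 fell. At an unadjusted p under 0.05, 12 were higher in KO and 8 in WT, and DESeq2 called 7 in KO and 3 in WT. Over all genes, edgeR called 5.3% higher and 11.8% in either direction in KO, and 6.49% in either direction in WT. At an unadjusted p under 0.05, 15.7% of all genes were higher in KO and 13.2% in WT. DESeq2 called 1315 of 12442 genes higher in KO and 940 in WT (22.9% and 16.0% in either direction). Cox17, a copper chaperone of complex IV, had 89.6 and 131 CPM in KO with LPS, against 32.3 and 33.7 CPM in KO at steady state (log2 fold change 1.74, edgeR adjusted p = 0.00976). In WT it had 145 and 138 CPM with LPS, against 43.3 and 41.0 CPM at steady state (log2 fold change 1.75, edgeR adjusted p = 0.0110). Cox17 thus stood high in all 4 libraries with LPS, WT library 2 included. Cox18, an insertase for a complex IV subunit, rose in KO (1.61, edgeR adjusted p = 0.0221) and WT (1.41, edgeR adjusted p = 0.0429), and Ndufaf3, an assembly factor of complex I, rose in KO (1.65, edgeR adjusted p = 0.0162).

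Of 72 tested mitochondrial ribosome proteins, which make the mitochondrially encoded subunits, 68 were positive in KO with LPS and 4 rose, Mrpl45 (2.45), Mrpl27 (1.29), Mrps34 (1.32) and Mrpl32 (1.93), with a median of 0.64. That is about the share of all genes called higher. At an unadjusted p under 0.05, 30 were higher in KO, against 15.7% of all genes. DESeq2 called 19, all higher, against 1315 of 12442 genes called higher. In WT 67 were positive, with a median of 0.44, and 0 were called by edgeR. At an unadjusted p under 0.05, 19 were higher in WT, against 13.2% of all genes. DESeq2 called 3 in WT, against 16.0% of all genes in either direction. Mrpl45 had 107 and 192 CPM in KO with LPS, against 26.0 and 28.7 CPM in KO at steady state. Of 13 genes of coenzyme Q synthesis, 10 were positive in KO and 2 rose, against 5.3% of all genes called higher. The 2 were Coq10a (1.32, edgeR adjusted p = 0.0284) and Coq3 (1.28, edgeR adjusted p = 0.0327). In KO 5 of the 13 were higher at an unadjusted p under 0.05, against 15.7% of all genes. DESeq2 called 3 in KO, against 22.9% of all genes in either direction. In WT 11 were positive and 0 called, with 3 higher at an unadjusted p under 0.05 and 0 called by DESeq2. Of 17 genes of the citric acid cycle and pyruvate dehydrogenase, 12 were positive in KO and 1 was called, against 11.8% of all genes in either direction. The gene called was Suclg2, a subunit of succinyl-CoA ligase, which fell by 1.97 on the log2 scale (edgeR adjusted p = 0.0422). Its value rests on few reads, at 1.92 and 1.38 CPM in KO with LPS, against 6.13 and 6.995 CPM in KO at steady state.

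Of 13 tested regulators of mitochondrial biogenesis and oxygen sensing, 8 were positive and 5 negative in KO with LPS against steady state, and 10 were positive and 3 negative in WT. The value farthest from 0 was that of Myc, a growth regulator, with a log2 fold change of -2.22 in KO (edgeR adjusted p = 0.109, though called by DESeq2) and -1.77 in WT (edgeR adjusted p = 0.202). Hif1a, the hypoxia-inducible factor subunit, rose in KO (1.46, edgeR adjusted p = 0.0229), with 1001 and 846 CPM with LPS, against 375 and 294 CPM at steady state. It was the only 1 of the 13 that edgeR called in KO, where 5.3% of all genes were called higher. In WT its log2 fold change was 0.70 (edgeR adjusted p = 0.169). The 6 carriers and subunits outside the naming pattern had 5 positive values and 0 calls by edgeR in each genotype. DESeq2 called 1 of the 6 in KO and 2 in WT, against 22.9% and 16.0% of all genes. Among the 6, Cyc1, cytochrome c1 of complex III, had 121 and 179 CPM in KO with LPS, against 78.6 and 72.2 CPM in KO at steady state (edgeR adjusted p = 0.0771). Atpif1, the inhibitor of ATP synthase hydrolysis, had the lowest value in both genotypes, -0.42 in KO (edgeR adjusted p = 0.220) and -0.86 in WT (edgeR adjusted p = 0.0632), while the subunits of the enzyme it binds had medians of 0.53 in KO and 0.29 in WT.

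Marker levels of other cell types differed between the groups beside these values. Summed macrophage markers (9 of 10 listed genes were in the table) were 5650 and 6229 CPM in KO with LPS, against 3502 and 1842 CPM in WT with LPS, 11380 and 11032 CPM in KO at steady state, and 9942 and 6510 CPM in WT at steady state. The markers did not move together. Apoe, which carried most of the sum at steady state, had 947 and 372 CPM in KO with LPS, against 6597 and 6303 CPM in KO at steady state, while Emr1 had 1787 and 2751 CPM in KO with LPS, against 642 and 992 CPM in KO at steady state, and Cd68 had 1145 and 1820 CPM in KO with LPS, against 620 and 455 CPM in KO at steady state. Neutrophil markers summed to between 4.78 and 242 CPM over the 8 libraries, mast cell and basophil markers to between 16.0 and 167 CPM, B cell markers to at most 20.97 CPM and T cell markers to at most 5.99 CPM, with the first 3 of these maxima in WT library 2 at steady state. Muscle markers, listed because of Cox6a2 and Cox7a1, summed to between 0.153 and 1.56 CPM, with 0.226 and 0.153 CPM in KO with LPS, where Cox6a2 was highest in library 1. The part of cell composition in the values of the members was not tested.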

How the data were processed

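RNA-seq counts came from 8 libraries of mouse dendritic cells. The authors deposited whole-number read counts per gene, not normalized. Per the labels' protocols, RNA came from an RNeasy plus kit and libraries from a TruSeq RNA v2 kit, which keeps no strand. The build was mm10; tools listed in the submitters' processing notes, with no role given, were edgeR 3.6.8, Subread 1.4.3, featureCounts and TopHat2 2.0.8.

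Groups and replicate numbers came from sample titles. In R 4.3.3, edgeR 4.0.16 kept genes with filterByExpr (minimum count 10, minimum total count 15), scaled libraries with TMM and fitted quasi-likelihood models with 1 coefficient per group over all 8 libraries (4 residual degrees of freedom, biological coefficient of variation 0.340). P-values were two-sided and adjusted over all 12442 genes tested by Benjamini-Hochberg, and the SE is the log2 fold change over the square root of F. The fitting code was run on simulated counts with less spread than these data, so that run does not measure power or error rates here.

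There were 5 comparisons: the genotypes under each treatment, the treatments within each genotype, and the interaction. Alternatives were RLE, upper-quartile or no scaling factors, 2 other filters, DESeq2 1.42.0, only the groups compared, a replicate block, and each library left out. A group left with 1 library is assumed to vary like the others. Transcript lengths and coordinates came from GENCODE M21 (GRCm38), matched by symbol for 83 of 84 members; near-copies came from blastn 2.17.0 (at least 98% identity over 50 bases), and promoters from RefSeq GRCm38.p6.

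Members and lists were chosen with earlier results of these data known. Named genes were called members, the 2 with the highest mean CPM and the highest and lowest fold change per complex, restricted isoforms, non-structural matches, and called or extreme genes of the lists; those not named are in counts, and a gene that the rule gave is not reported here. Genes named outside that rule (among them Ndufs5, BC002163, Cox5b, Atp5e and Uqcr10) were chosen after their values were seen.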

Additional observations from a re-analysis of the deposited data

How the results depend on the processing

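In KO with LPS against steady state, the 4 called members became 2 with total counts, 9 without a filter, 16 with DESeq2 and 16 with only the groups compared; with a replicate block 0 were called, and leaving out single libraries gave 0 to 29. The median over all tested members, 0.80 as reported, was 0.53 with total counts and 0.46 to 0.97 with single libraries left out. In WT with LPS against steady state, 0 called became 1 without a filter, 2 with DESeq2 and 0 to 13 with single libraries left out, and the median ran from -0.07 to 0.74. In KO against WT with LPS, 0 called members (96 genes over all) became 1 with DESeq2 (1062). The interaction median ran from 0.054 to 0.87. The cause of these shifts was not tested.

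The replicate numbers were not taken to pair the libraries, since correlations of same-numbered libraries ran from -0.60 to 0.26. A pairing with the KO LPS numbers crossed, added after the data were seen, called 25 members in KO with LPS and 1 in WT. It called 2484 genes over all in KO and 1285 in WT.

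Sign changes were looked up only for named members that were called, or were highest or lowest in their complex in a comparison. Those of other members are not listed. Fold changes that were not called turned sign for the following of these named members. With total counts these were Atp5a1 (-0.075), Ndufs1 (-0.19) and Sdha (-0.12) in KO with LPS, Sdhd in KO against WT with LPS (-0.077) and at steady state (0.0075), and the interaction of Sdhd (-0.084). Without a filter Sdhc in WT with LPS was 0.0040 and Sdhd in KO against WT with LPS -0.0067, the last being -0.018 with only the groups compared. With single libraries left out, ranges in KO with LPS were -0.0086 to 0.36 for Atp5a1 and -0.052 to 0.31 for Sdha. In WT with LPS they were -0.56 to 0.036 for Ndufb2, -0.22 to 0.23 for Sdhc and -0.56 to 0.22 for Uqcr11. In KO against WT with LPS they were -1.01 to 0.21 for Atp5g1, -0.72 to 0.26 for Cox7c, -0.43 to 0.62 for Sdhd and -0.58 to 0.21 for Uqcrh. At steady state they were -0.11 to 0.31 for Sdhc and -0.15 to 0.10 for Sdhd. For interactions they were -1.38 to 1.35 for Cox6a2, -3.42 to 4.33 for Cox6b2, -0.42 to 0.64 for Sdhd and -0.58 to 0.31 for Uqcrc2. Depth limits Cox7a1, Cox6b2, Atp5g1, Ndufb4 and Cox6a2, which had at most 17, 17, 32, 39 and 60 reads in any library.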
